A study of Mus musculus with 8 samples.

Results

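Axon guidance ligands and receptors were described in RNA that is bound to tagged ribosomes of cortical interneurons at their synapses. Members were the genes of the deposited table whose symbol names an ephrin, an Eph receptor, a semaphorin of classes 3 to 7, a plexin, a neuropilin, a Slit, a Robo, a netrin, an Unc5 receptor or Dcc. This rule found 68 of the 56576 genes listed, 34 ligands in 9 families and 34 receptors in 9 families, and all 68 passed the filter on low values. The joint entry of Ntn3 with a neighbouring gene was outside the rule. Synaptosomes, pinched-off synaptic endings that reseal around their contents, were prepared from mouse cerebral cortex at postnatal day 15. Control libraries (4) came from Lhx6-Cre;ErbB4+/+;Rpl22HA/HA mice and mutant libraries (4) from Lhx6-Cre;ErbB4F/F;Rpl22HA/HA mice. Both genotypes carried Lhx6-Cre, a driver of recombination in postmitotic interneurons from the medial ganglionic eminence (MGE) and preoptic area, and an HA tag on the ribosomal protein Rpl22 in the cells with Cre. In the mutants the gene of the neuregulin receptor ErbB4 was floxed, so that its deletion follows Cre. Synaptosomes of the whole cortex went into the pulldown, and RNA of cells without Cre can be carried along.

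Guidance cues steer growing axons by attraction or repulsion and later shape synapses. Ephrins are membrane-bound ligands, A-type on a lipid anchor and B-type with a cytoplasmic tail, and bind Eph receptor tyrosine kinases on a neighbouring cell. Class 3 semaphorins are secreted and mostly act through neuropilins paired with plexins, while the membrane-bound classes bind plexins directly. Slits repel axons through Robo receptors, and netrins attract through Dcc or repel through Unc5 receptors. The same cues are known outside neurons: Robo4, Ephb4, Efnb2, Plxnd1, Unc5b and Nrp1 are genes of blood vessel endothelium. These were picked for mention after values were seen, so they are no basis for a pattern among the members.

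Libraries held between 51010687 and 80226984 reads on genes. Erbb4, the deleted gene, had 3589 ± 1614 (SD, n = 4) normalized counts in controls and 1410.0 ± 321 (SD, n = 4) in mutants. Control replicate 1 (1640.1) lay below the highest mutants, so the 2 genotypes overlapped in the targeted gene. Markers of the tagged cells were present, and those of other cells were too. The summed normalized count of 13 MGE-derived interneuron markers ran from 105689 to 347428 in controls and from 50403 to 170034 in mutants, and that of 10 endothelial and mural cell markers from 174080.0 to 274713 in controls and from 267749 to 287980.0 in mutants. None of the markers of either list was at 0 in all libraries. Fewer cells of a type and less RNA per cell cannot be told apart in such bulk samples. Labels did not tie libraries to the study's 2 sequencing batches, so within-batch values are not given.

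Of the 68 members, 5 differed at least 1.5-fold between genotypes with an unadjusted limma p no higher than 0.05 (7.35%). Over all 31171 genes tested the same rule called 7.15%, so the members were called about as often as any genes. Calls below are those of this limma fit unless another tool is named. Sema3c, Sema6d, Ntn1 and Ephb4 were higher in mutants, where the background for higher calls was 3.98%, and Efna3 was lower, where it was 3.17%. By class, 4 of 34 ligands and 1 of 34 receptors were called. No member passed an adjusted p of 0.05 with limma, edgeR or DESeq2 (0 in each, against 0.0449% of all genes with limma), and 7 members had an unadjusted p under 0.05 in limma, 7 in edgeR and 8 in DESeq2. Adjusted p-values from limma were 0.58 or higher for every member. The log2 fold change was above 0 for 34 members and below 0 for 34, with a median of 0.01 against 0.06 over all genes tested. Ligands had a median of 0.04 and receptors of -0.005. With edgeR, whose background was 7.31%, 3 members were called higher and 2 lower, and with DESeq2 (9.09%) 3 and 3. After quantile normalization 7 were called higher and 0 lower, where 1329 and 1019 were called over all genes. DESeq2 called 1261 genes higher and 1573 lower over the whole table against 1241 and 988 with limma. Without control replicate 1 the ligand median was -0.18 and the receptor median -0.14. In that fit 1 member was called higher and 0 lower, where 871 and 643 were called over all genes. The log2 fold change of 10 members turned its sign there.

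**Figure D1:**
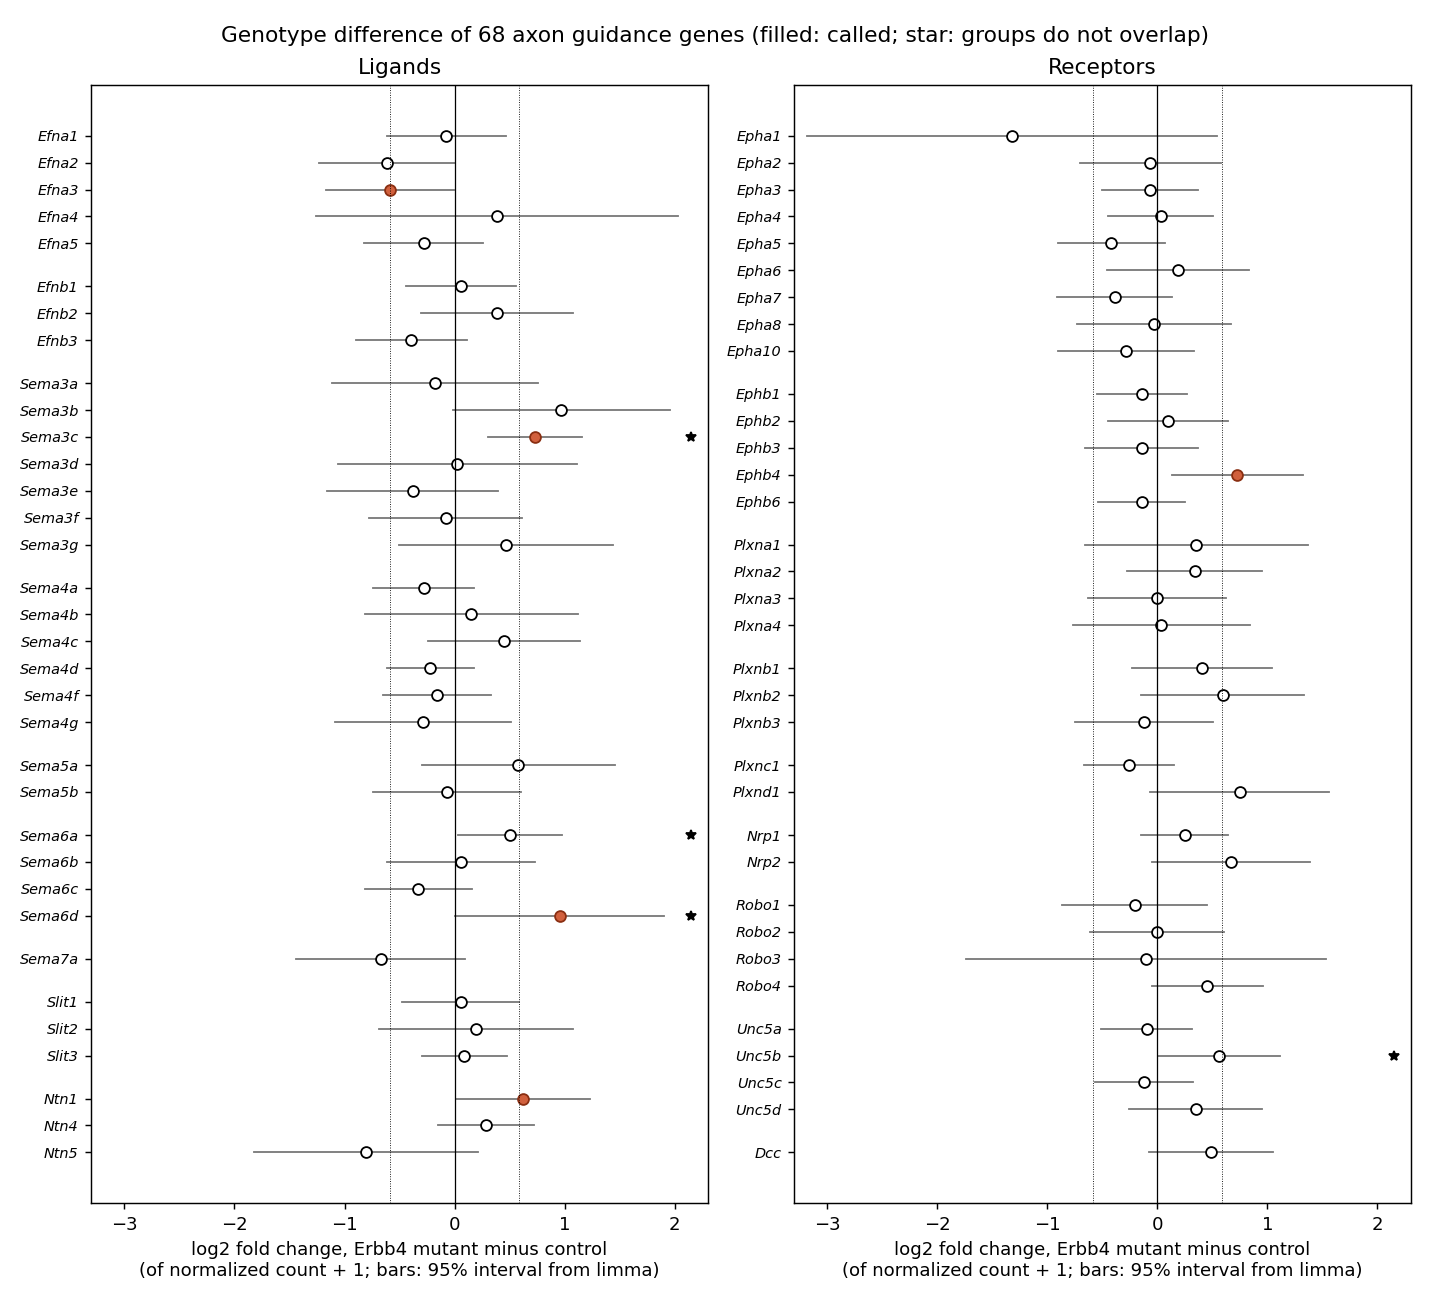
Log2 fold change of each of the 68 genes, ligands on the left and receptors on the right, grouped by family from top to bottom. Points are limma estimates with 95% intervals, filled points mark the 5 called genes, stars the 4 genes whose control and mutant values do not overlap, and dotted lines a 1.5-fold change either way. Points scatter on both sides of 0, from -1.32 for Epha1 to 0.97 for Sema3b.

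Levels were compared between genes as normalized counts per kb of the longest annotated transcript. This is an approximation, since reads were counted on constitutive regions whose length the table does not give. Ephb6, an Eph receptor without kinase activity, was highest in both genotypes, at 6691 ± 592 (SD, n = 4) normalized counts per kb in controls. Nrp1, the co-receptor of Sema3a and Sema3c, came next at 4616 ± 524 (SD, n = 4) normalized counts per kb, and the intervals of 1 SD around these 2 means did not meet. Below them followed Sema6b at 3255 ± 1198 (SD, n = 4), Plxnd1 at 2906 ± 1382 (SD, n = 4), Epha4 at 2629.6 ± 566 (SD, n = 4), Robo4 at 2414 ± 422 (SD, n = 4) and Ephb4 at 2238 ± 569 (SD, n = 4), all as normalized counts per kb in controls, and neighbours in this order did not differ beyond their SD. Receptors held 6 of the first 7 places. Sema6b, a membrane-bound semaphorin that binds A-type plexins, was the best represented ligand. At the other end stood Sema3b at 26.2 ± 7.57 (SD, n = 4), Epha1 at 28.1 ± 20.9 (SD, n = 4) and Efna4 at 33.3 ± 23.5 (SD, n = 4) normalized counts per kb in controls. In mutants Plxnd1, Ephb4 and Robo4 took places 3, 4 and 5, and Sema6b stood at place 6.

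**Figure D2:**
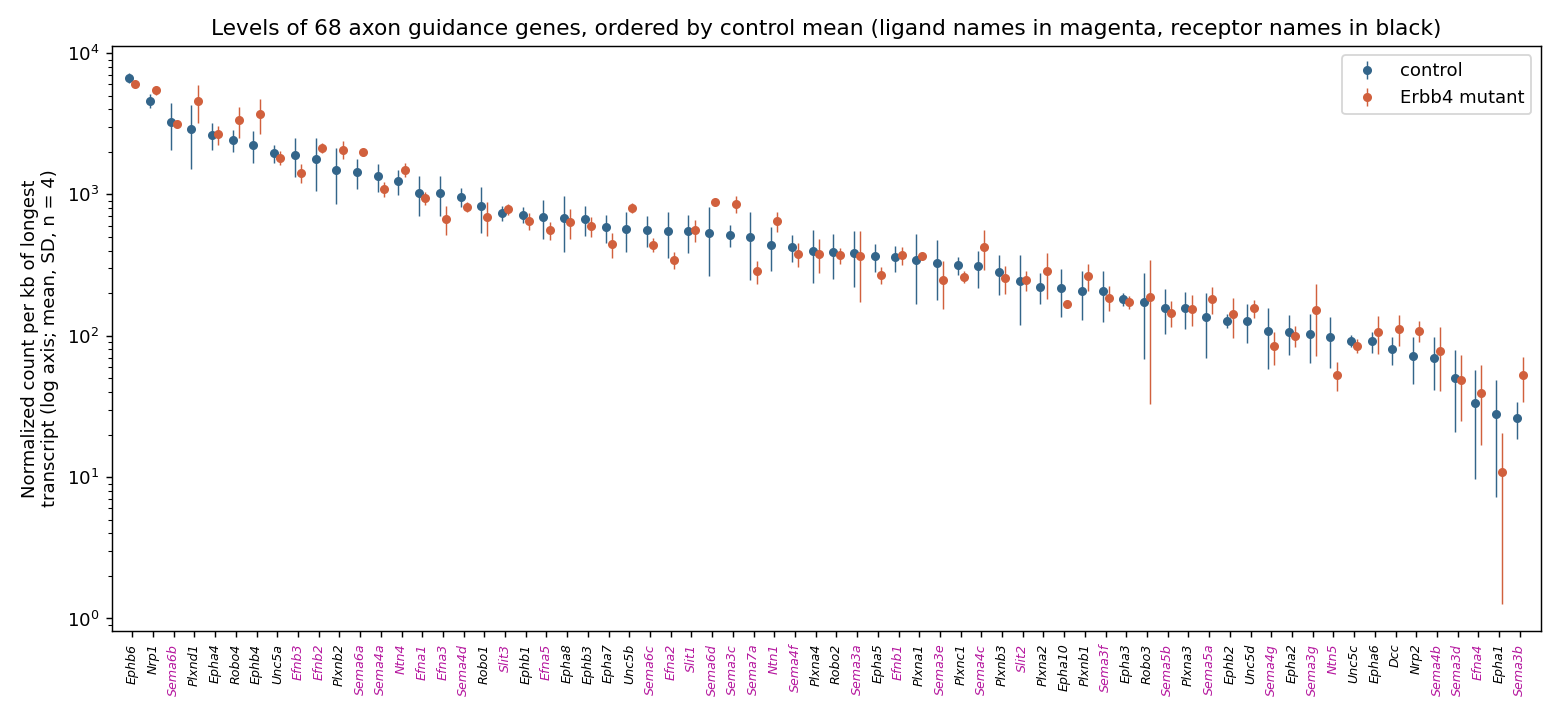
Normalized count per kb of longest transcript on a log axis for all 68 genes, ordered from left to right by the control mean. Points are means and bars SDs of 4 libraries, blue for controls and orange for Erbb4 mutants, and ligand names are in magenta. Ephb6 and Nrp1 lead in both genotypes, and Sema3b, Epha1 and Efna4 lie at the lower end in controls.

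Class 3 semaphorins held the firmest difference. Sema3c (chromosome 5, 17574280 to 17730268 of mm10), a secreted ligand of neuropilins with Plxnd1, had 2371, 2951, 3462 and 2544 normalized counts in control replicates 1, 3, 4 and 5 and 4151, 4116, 5190.1 and 5324 in mutant replicates 2, 3, 4 and 5. Every mutant lay above every control, and the means were 2832 ± 485 (SD, n = 4) in controls against 4695 ± 651 (SD, n = 4) in mutants. On the log2 scale the fold change was 0.73 (SE 0.19), or 1.66-fold, with an unadjusted limma p of 0.0030 and an adjusted p of 0.58. The adjusted p was 0.57 with edgeR and 0.071 with DESeq2. An exact permutation test gave p = 0.029 (two-sided), the smallest that 4 libraries against 4 allow. Across all genes, 4.93% had values that did not overlap between genotypes (2.76% with mutants higher and 2.17% with mutants lower), and among the members this held for 4, or 5.88%, all with mutants higher. Sema3c was called in all 17 alternative fits, with log2 fold changes from 0.65 to 0.84 among them.

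The other 6 members of the class were not called by limma. Sema3b, the least abundant of them, had the highest log2 fold change of any ligand (0.97, SE 0.45). It had 77.7, 59.5, 116 and 106 normalized counts in control replicates 1, 3, 4 and 5 and 247, 115, 138 and 218 in mutant replicates 2, 3, 4 and 5. These are low values, and mutant replicate 3 lay at the level of controls. Limma did not call it, while edgeR and DESeq2 did, and it was called in 4 of 17 alternative fits. Sema3a, a classical repellent that binds Nrp1, ran from 1339 to 3667 normalized counts in controls and from 881 to 3272 in mutants, and Sema3e, a direct ligand of Plxnd1, from 1383 to 3615 normalized counts in controls and from 1104 to 2332 in mutants. The ranges of both genes overlapped between genotypes. Sema3e was called lower in 2 of 17 alternative fits. The log2 fold changes of Sema3d, Sema3f and Sema3g were 0.03, -0.08 and 0.47, each with a 95% interval that held 0.

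Class 6 semaphorins span the membrane and signal through A-type plexins. Of the 4 members, 2 did not overlap between genotypes, with mutants higher, against 2.76% of all genes tested. Sema6d (chromosome 2, 124089966 to 124667789), a ligand of Plxna1, had 972, 4868, 4540.0 and 3461 normalized counts in control replicates 1, 3, 4 and 5 and 5284, 5666, 6004 and 5866 in mutant replicates 2, 3, 4 and 5. Control replicate 1 was far below all others, and the other 3 controls lay below the mutants by less. The log2 fold change was 0.96 (SE 0.43), or 1.94-fold, with an unadjusted limma p of 0.049. Without control replicate 1 it was 0.42 and was no longer called, and it was called in 5 of the 17 alternative fits. Sema6a, a ligand of Plxna2 and Plxna4, had 6695, 11942, 11279 and 9308 normalized counts in control replicates 1, 3, 4 and 5 and 13607, 12468, 14002 and 14265 in mutant replicates 2, 3, 4 and 5. Its lowest mutant stood just above its highest control. At 0.50 (SE 0.21) the log2 fold change was short of 1.5-fold, with an unadjusted limma p of 0.038. Sema6b, which had the highest level of any ligand, had 5461, 14714, 14401 and 14069.8 normalized counts in control replicates 1, 3, 4 and 5 and 12384, 11568, 12158 and 11031 in mutant replicates 2, 3, 4 and 5. Control replicate 1 was again apart from the other 3 controls, which lay above all mutants. Its log2 fold change was 0.06 with all libraries and -0.29 without that one. Sema6c had a log2 fold change of -0.33 (95% interval -0.81 to 0.16) and was called lower in 1 of 17 alternative fits.

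**Figure D3:**
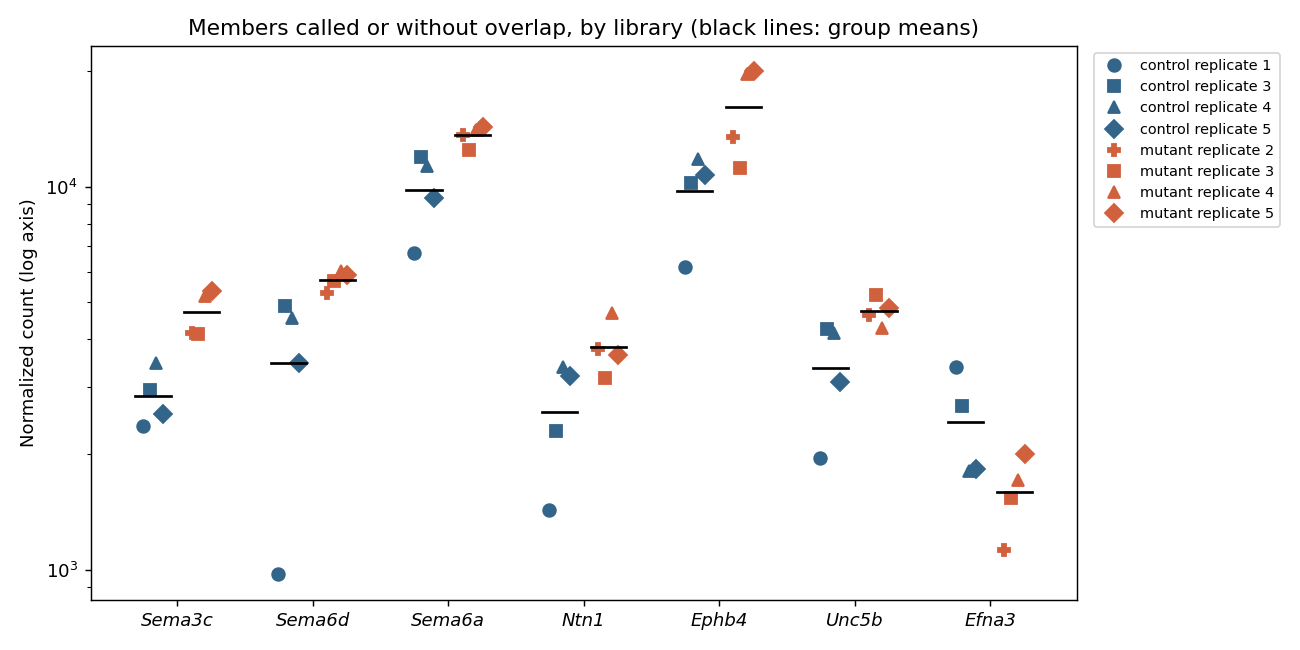
Normalized count on a log axis in each library for the 7 members that were called or did not overlap between genotypes, controls in blue and mutants in orange, with a symbol for each replicate number and black lines at group means. The 4 mutants lie above the 4 controls for Sema3c, Sema6d, Sema6a and Unc5b. Control replicate 1 is the lowest control for 6 of the 7 genes and the highest for Efna3.

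None of the 9 semaphorins of classes 4, 5 and 7 was called by limma. Sema4d, a membrane-bound ligand of B-type plexins, had 4296 ± 651 (SD, n = 4) normalized counts in controls and 3669 ± 313 (SD, n = 4) in mutants and a log2 fold change of -0.22 (95% interval -0.62 to 0.18). The 6 class 4 genes had log2 fold changes from -0.29 to 0.45. Sema5a, a membrane-bound semaphorin with thrombospondin repeats, had 513, 1739, 2204 and 1415 normalized counts in control replicates 1, 3, 4 and 5 and 2107, 2486, 1762 and 1507 in mutant replicates 2, 3, 4 and 5. Only control replicate 1 was low. Sema7a, which sits on a lipid anchor and binds Plxnc1 and integrins, had 2597, 2094, 1063 and 839.8 normalized counts in control replicates 1, 3, 4 and 5 and 798, 1182, 853 and 934 in mutant replicates 2, 3, 4 and 5. Control replicates 1 and 3 stood above all mutants, and control replicates 4 and 5 lay among them. Its log2 fold change was -0.67 (SE 0.35), with an unadjusted limma p of 0.080. It was called lower in 4 of 17 alternative fits, edgeR and DESeq2 among them.

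Receptors of semaphorins showed 0 calls among 9 plexins and 2 neuropilins. Plxnd1 (chromosome 6, 115954808 to 115995007), the receptor of Sema3e and a partner of neuropilins, had the highest log2 fold change of any receptor, 0.75 (95% interval -0.06 to 1.56). It had 9774, 14134, 28219 and 28163 normalized counts in control replicates 1, 3, 4 and 5 and 21530.1, 26109, 41564 and 37523 in mutant replicates 2, 3, 4 and 5. Mutant replicates 4 and 5 were above all controls, while mutant replicates 2 and 3 lay below control replicates 4 and 5. It was called in 5 of 17 alternative fits, but not by edgeR or DESeq2. Among the 5 was the replicate block (0.62), which rests on replicates 3, 4 and 5 of each genotype. Plxnb2, a B-type plexin of many cell types, had 4151, 8874, 12899 and 12976 normalized counts in control replicates 1, 3, 4 and 5 and 11505, 12087, 14923 and 15402 in mutant replicates 2, 3, 4 and 5. Here control replicates 1 and 3 were low and the other 6 libraries overlapped, with a log2 fold change of 0.59 (95% interval -0.15 to 1.34). Nrp1 had 16746, 19533, 15215 and 15812 normalized counts in control replicates 1, 3, 4 and 5 and 21856, 18729, 19302 and 19703 in mutant replicates 2, 3, 4 and 5. Its groups overlapped through control replicate 3 alone, and its log2 fold change was 0.25 (95% interval -0.15 to 0.64). Nrp2, the neuropilin that prefers Sema3f, was the rarer of both, with 483 ± 178 (SD, n = 4) normalized counts in controls and 729.7 ± 126 (SD, n = 4) in mutants and a log2 fold change of 0.67 (95% interval -0.05 to 1.38).

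A-type plexins transduce class 3 and class 6 signals. Plxna4, the best measured of them, had 2015, 6220.4, 6185 and 6101 normalized counts in control replicates 1, 3, 4 and 5 and 5246, 6618, 4039.7 and 3726 in mutant replicates 2, 3, 4 and 5. Control replicate 1 was apart from the rest, and the log2 fold change was 0.04 with all libraries and -0.37 without it. The library kit does not mark strand, so reads of Plxna4 and of its antisense gene Plxna4os1, which lies within it, cannot be told apart. Of the 68 members, 48 overlap the span of at least 1 other gene of the table. The called members are all among them, with 10 such genes for Sema6d, 3 for Ntn1, 2 for Efna3 and 1 each for Ephb4 and Sema3c. The remaining log2 fold changes were 0.35 for Plxna1 (-0.22 without control replicate 1), 0.34 for Plxna2, -0.0043 for Plxna3, 0.40 for Plxnb1, -0.12 for Plxnb3, a gene best known from oligodendrocytes, and -0.26 for Plxnc1.

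Of 5 ephrin-A ligands, 4 had log2 fold changes below 0 and 1 was called lower. Efna3 (chromosome 3, 89313899 to 89322939) had 3389, 2679, 1809.6 and 1834 normalized counts in control replicates 1, 3, 4 and 5 and 1126, 1539, 1715 and 2000.5 in mutant replicates 2, 3, 4 and 5. Control replicates 1 and 3 were above all mutants, and control replicates 4 and 5 fell among them. With a log2 fold change of -0.59 (SE 0.26), which is 1.5-fold lower, and an unadjusted limma p of 0.0495 it met both thresholds narrowly, and it was called in 6 of the 17 alternative fits. Leaving out control replicate 1, 3 or mutant replicate 2, 3 or 4 ended the call, and without control replicate 1 the log2 fold change was -0.41. It was -0.24 with library weights, which ended the call too. Efna2, of similar size (-0.62, 95% interval -1.23 to 0.0023), missed the p threshold at 0.051 (limma), was called in 7 of 17 alternative fits, edgeR and DESeq2 among them, and was named after its values were seen. It had 1619.6, 1438, 881 and 756 normalized counts in control replicates 1, 3, 4 and 5 and 679.7, 867, 749 and 636 in mutant replicates 2, 3, 4 and 5. The 4 mutants lay in a narrow band that reached up to the lower controls.

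Efna1, Efna3 and Efna4 are neighbours on chromosome 3, with gaps of 32945 and 10454 bp between them,. Their log2 fold changes were -0.07, -0.59 and 0.39. Efna5, the best measured A-type ligand and a repellent of EphA-bearing axons, had 2812 ± 865 (SD, n = 4) normalized counts in controls and 2246 ± 324 (SD, n = 4) in mutants (log2 fold change -0.28, 95% interval -0.82 to 0.26). Among B-type ligands Efnb2, which also marks arteries, had 3776, 8364, 10305 and 11599.9 normalized counts in control replicates 1, 3, 4 and 5 and 9334, 9847, 10750.3 and 11125 in mutant replicates 2, 3, 4 and 5. It was low in control replicate 1 alone. Its log2 fold change was 0.39 with all libraries and 0.03 without that one, against 0.06 for Efnb1 and -0.39 for Efnb3, the ephrin of the spinal cord midline, all with intervals that held 0.

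Of 14 Eph receptors only Ephb4 was called. Ephb4 (chromosome 5, 137350108 to 137378670), the receptor of Efnb2 on veins, had 6155, 10184, 11811 and 10707 normalized counts in control replicates 1, 3, 4 and 5 and 13493, 11194, 19625 and 20003 in mutant replicates 2, 3, 4 and 5. Mutant replicates 4 and 5 stood above every other library, and mutant replicate 3 lay below control replicate 4. The log2 fold change was 0.73 (SE 0.27), or 1.65-fold, with an unadjusted limma p of 0.021, and an exact permutation test gave p = 0.057 (two-sided). It was called in 14 of 17 alternative fits, but not without control replicate 1 (0.52), mutant replicate 4 (0.62) or mutant replicate 5 (0.61).

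Ephb6 had 22234, 25079.6, 27602 and 25769 normalized counts in control replicates 1, 3, 4 and 5 and 22937, 23003, 21922 and 23025 in mutant replicates 2, 3, 4 and 5. The mutants were close together and below 3 of the 4 controls, and the log2 fold change was -0.14 (95% interval -0.54 to 0.25). Epha4, which binds ephrins of both types, had 12283, 21059, 16735 and 16484 normalized counts in control replicates 1, 3, 4 and 5 and 16123, 20548, 14556 and 16076 in mutant replicates 2, 3, 4 and 5. Its ranges overlapped, with a log2 fold change of 0.03 (95% interval -0.45 to 0.51), so a change of 1.5-fold either way is outside the interval. Of 9 EphA receptors, 7 had a log2 fold change below 0 and none was called. The lowest of any receptor was that of Epha1 (-1.32, SE 0.85), a rare transcript with 162, 23.6, 138 and 44.5 normalized counts in control replicates 1, 3, 4 and 5 and 81.2, 13.8, 32.8 and 14.9 in mutant replicates 2, 3, 4 and 5. The ranges overlapped. Epha5 and Epha7, partners of Efna5, had log2 fold changes of -0.42 and -0.39, and those of Ephb1, Ephb2 and Ephb3 were -0.14, 0.10 and -0.14.

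Of the 3 netrins, 1 was called. Ntn1 (chromosome 11, 68209364 to 68386826), the secreted ligand of Dcc and Unc5 receptors, had 1433, 2302, 3390.0 and 3196 normalized counts in control replicates 1, 3, 4 and 5 and 3770.5, 3160.0, 4668 and 3641 in mutant replicates 2, 3, 4 and 5. Mutants were higher except that mutant replicate 3 lay between control replicates 3 and 5. The log2 fold change was 0.63 (SE 0.28), or 1.54-fold, with an unadjusted limma p of 0.045, and an exact permutation test gave p = 0.086 (two-sided). It was called in 8 of 17 alternative fits, and those without a call included edgeR, DESeq2, library weights and the fits without control replicate 1 or 3 or mutant replicate 2, 4 or 5, with values down to 0.37. Ntn4, a netrin of basement membranes, had 4525 ± 925 (SD, n = 4) normalized counts in controls and 5460.4 ± 642 (SD, n = 4) in mutants (log2 fold change 0.29, 95% interval -0.15 to 0.72). Ntn5 had the lowest log2 fold change of any ligand (-0.80, SE 0.46), on values from 86.1 to 251 normalized counts in controls and from 66.6 to 113 in mutants.

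Among netrin receptors Unc5b (chromosome 10, 60762610 to 60831584), a receptor of neurons and of endothelial tip cells, had 1954, 4258, 4147 and 3082 normalized counts in control replicates 1, 3, 4 and 5 and 4631, 5205, 4270.4 and 4832 in mutant replicates 2, 3, 4 and 5. No mutant fell among the controls, but the lowest mutant and the highest control were nearly equal. Its log2 fold change was 0.56 (SE 0.25), below 1.5-fold, with an unadjusted limma p of 0.049. Unc5a, the most abundant Unc5 receptor here and one of nervous tissue, had 6139, 8374, 8686 and 8111 normalized counts in control replicates 1, 3, 4 and 5 and 6136, 8088, 7362 and 7554 in mutant replicates 2, 3, 4 and 5. Both ranges overlapped, and the log2 fold change was -0.10 (95% interval -0.51 to 0.31). That of Unc5c was -0.12 (95% interval -0.57 to 0.33), and that of Unc5d 0.35. Dcc, which mediates attraction to Ntn1, had 825, 587, 846 and 1050.0 normalized counts in control replicates 1, 3, 4 and 5 and 1193, 1536, 1023 and 889 in mutant replicates 2, 3, 4 and 5. Mutant replicates 2 and 3 lay above all controls and the other 2 within their range, and the log2 fold change was 0.49 (95% interval -0.08 to 1.05).

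Slits and Robos gave 0 calls among 7 genes. Slit3, the best measured Slit, had 3681, 3307, 4372 and 4167 normalized counts in control replicates 1, 3, 4 and 5 and 4451, 4005, 4359 and 3645 in mutant replicates 2, 3, 4 and 5, and its log2 fold change of 0.09 had a 95% interval -0.30 to 0.47. The log2 fold changes of Slit1 and Slit2 were 0.06 and 0.19 (-0.09 and -0.25 without control replicate 1), and those of Robo1 and Robo2, the Slit receptors of axons, -0.21 and -0.01. Robo4 (chromosome 9, 37401896 to 37415115), an endothelial Robo, had the highest level of the family. It had 10583, 13233, 14190.5 and 9814 normalized counts in control replicates 1, 3, 4 and 5 and 13206, 13269, 21512 and 18257 in mutant replicates 2, 3, 4 and 5. Mutant replicates 4 and 5 were above all controls, and mutant replicates 2 and 3 were within their range. The difference did not pass the test (log2 fold change 0.45, 95% interval -0.05 to 0.96).

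Set beside each other, ligands and the receptors they are known to bind are given here as log2 fold changes. Sema3c was higher in mutants, while of its receptors Nrp1, Nrp2 and Plxnd1 had log2 fold changes of 0.25, 0.67 and 0.75, none called. Sema6d was called higher and its receptor Plxna1 had 0.35, or -0.22 without control replicate 1. For Sema7a and Plxnc1 the values were -0.67 and -0.26, and for Sema4d and Plxnb1 -0.22 and 0.40. Efnb2 and Ephb4 had 0.39 and 0.73, or 0.03 and 0.52 without control replicate 1. Epha4, which binds ephrins of both types, had 0.03, and Ephb1, Ephb2 and Ephb3 had -0.14, 0.10 and -0.14. Ntn1 was called higher (0.63, or 0.37 without control replicate 1). The log2 fold changes of Dcc, Unc5b and Unc5d were 0.49, 0.56 and 0.35, or 0.50, 0.32 and 0.09 without that library. Those of Unc5a and Unc5c were -0.10 and -0.12, or -0.21 and -0.12 without it. Slit2 and Robo1 had 0.19 and -0.21, or -0.25 and -0.48 without that library.

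Summed over genes, the 34 ligands had from 69884 to 111017 normalized counts in controls and from 97136 to 101513 in mutants. The 34 receptors had from 126226 to 199298 and from 177804 to 214483. The receptor sum was 1.65 to 2.00 times the ligand sum in controls and 1.78 to 2.11 times in mutants. The ranges of both sums overlapped between genotypes. Control replicate 1 had the lowest sum of both classes. It was the lowest of the 4 controls for 41 of the 68 members (60.3%), against 39.2% of all genes tested. Mutants were tighter, with a median coefficient of variation over the members of 16.9% against 31.2% in controls. Over all genes tested the median in controls was 45.1%. None is given for mutants, so the difference cannot be read as a trait of the members.

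**Figure D4:**
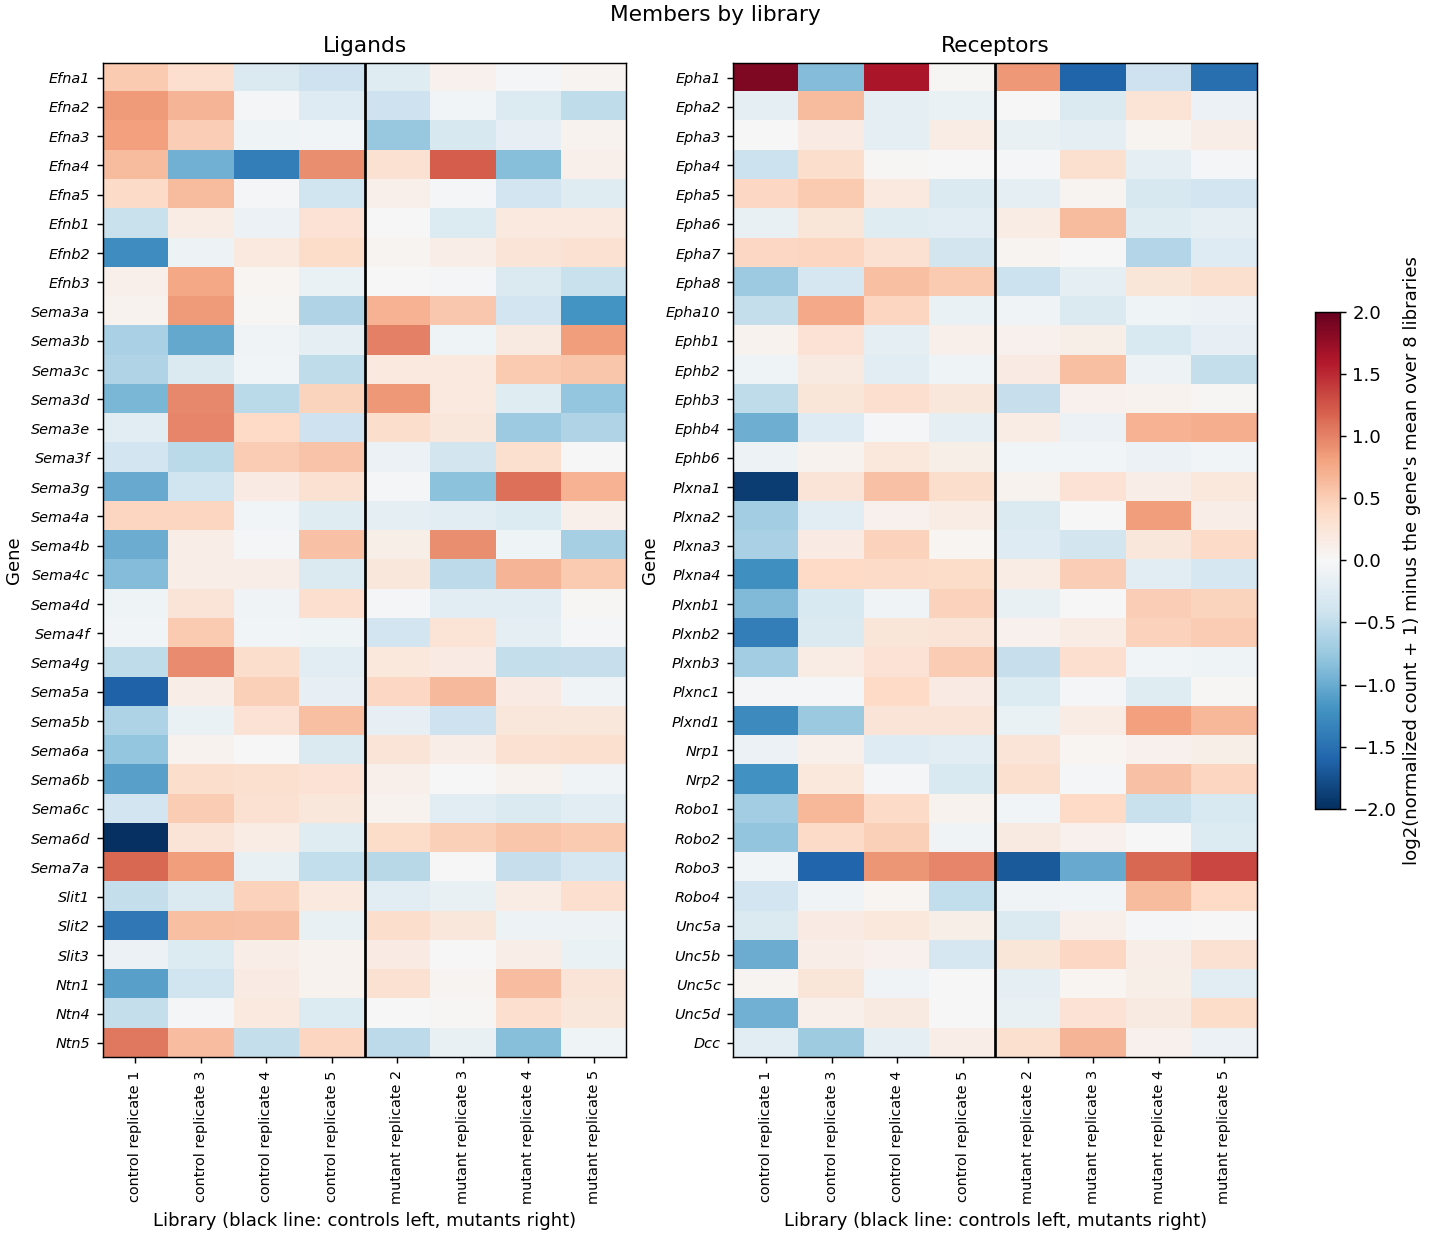
Level of each member in each library as log2(normalized count + 1) minus the mean of the 8 libraries, red above and blue below, ligands on the left and receptors on the right. Columns left of the black line are controls. Control replicate 1 is blue for most genes of both classes, and Robo3 is low in control replicate 3 and mutant replicates 2 and 3 and high in replicates 4 and 5 of both genotypes.

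**Figure D5:**
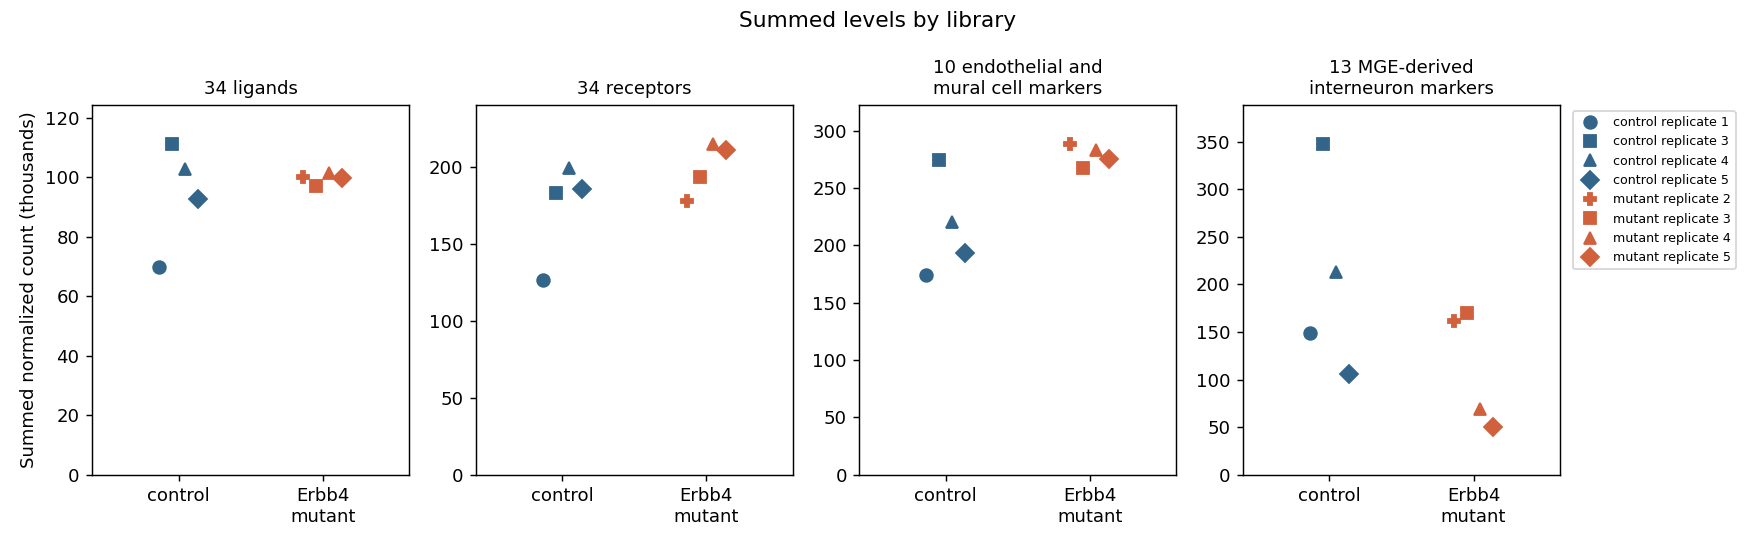
Summed normalized counts, divided by 1000, of the ligands, the receptors and 2 marker lists in each library, with a symbol for each replicate number. Control replicate 1 is lowest for ligands and receptors, endothelial and mural markers are high in all 4 mutants and control replicate 3, and interneuron markers are lowest in mutant replicates 4 and 5.

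Of the 10 endothelial and mural markers, 4 were called higher and 0 lower, with a median log2 fold change of 0.54. Over all genes tested 3.98% were called higher and 3.17% lower. MGE-derived interneuron markers had a median log2 fold change of -0.65 over the 12 tested, with 3 called lower (Gad1, Gad2 and the deleted Erbb4 itself, which is on the list), and Nkx2-1 was below the filter. Of 11 markers of PV+ interneurons 5 were called lower (median log2 fold change -1.10), of 12 of SST+ interneurons 1 (-0.83) and of 11 of interneurons from the caudal ganglionic eminence 0 (-0.60). Of 10 oligodendrocyte markers 3 were called lower (-0.62), and of 10 each of microglia (-0.49) and astrocytes (-0.11) 0. Of 12 excitatory neuron markers 1 was called lower and 1 higher (-0.18), and of 8 of oligodendrocyte precursors 0 (-0.17). Markers of most other cell types thus also had medians below 0. The part of these cell types in the results was not tested.

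Partners of the pathways were read from a list of 103 co-receptors and intracellular effectors, of which 100 were found and tested. In all, 8 were called higher and 4 lower, 12.0% against 7.15% of all genes, and 0 passed an adjusted p of 0.05 with limma (18 at an unadjusted p under 0.05), edgeR (17) or DESeq2 (20). Among those called higher were the netrin receptor effectors Dock1 (0.89), an activator of Rac, and Ablim1 (0.84), an actin-binding protein. The ephrin receptor effectors Vav3 (0.83), a guanine nucleotide exchange factor, and Grb10 (0.77), an adaptor, were higher as well. So were the kinase Abl1 (0.66), the protease Adam10 (0.68), which sheds ephrins, and the integrin Itga1 (0.60). Lower were the GTPases Rac3 (-0.76) and Rnd2 (-0.71), the kinase Cdk5 (-0.62), which acts downstream of Sema3a, and the phosphatase Acp1 (-0.61), all as log2 fold changes. Without control replicate 1, 1 of the list was called higher and 1 lower.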

How the data were processed

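RNA bound to HA-tagged ribosomes was sequenced from 8 libraries, 4 per genotype. The authors aligned reads to mm10 with STAR 2.4.0, counted them on constitutive gene regions of a Fast DB annotation and deposited a normalized signal, namely read counts scaled by a DESeq2 size factor, with no expression filter. Values were whole multiples of 1 read within a tolerance of 0.01, so whole read counts were recovered, but the size factors of 2 libraries (control replicate 4 and mutant replicate 5) were so close to 1 that this check is not decisive for them. The library kit starts from little RNA and does not mark strand.

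Genes with a mean of at least 10 normalized counts in either genotype were tested (31171) on log2(normalized count + 1) with limma 3.58.1 in R 4.3.3. Fold changes on this scale understate those of low genes. A call required a 1.5-fold difference and an unadjusted p no higher than 0.05, and Benjamini-Hochberg adjusted p-values are given beside them. The study used these thresholds with DESeq2 and an expression filter drawn from intergenic regions. It reported most of its differing genes as lower in mutants. Limma here called 1241 higher and 988 lower, edgeR 1073 higher and 1206 lower, and DESeq2 1261 higher and 1573 lower. Which direction held more calls thus depended on the test. Exact permutation tests over libraries were two-sided. Alternatives were other pseudocounts and filters, quantile normalization, library weights, edgeR 4.0.16 and DESeq2 1.42.0 on recovered reads, a replicate block, and each library left out. The replicate block set same-numbered libraries against each other, so control replicate 1 and mutant replicate 2 carried no weight in its genotype difference. The fits were tested on simulated data. The changes planted there were larger than 1.5-fold and libraries were drawn independently, so changes near the threshold were not covered. Depth was as given for the libraries, and intervals cover the spread between libraries only.

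Named genes were those called, those without overlap, the 3 ligands and 3 receptors with the highest means, the ligand and receptor with the highest and lowest log2 fold change, and the best measured member of each family. Further members are named to describe their family or their known partners, and were chosen after values were seen. Members and lists were chosen with earlier results of these data known. A pathway gene called higher is not reported here.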

Additional observations from a re-analysis of the deposited data

Results flagged for a closer look

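In 8 of the 136 groups of 4 libraries examined (68 members in 2 genotypes), 1 library stood apart from the other 3 by Dixon's 95% criterion, where chance gives 6.8. Control replicate 1 was low for Sema6b (5461 normalized counts, others 14069.8 to 14714), Ephb3 (2059, others 3416 to 3685) and Plxna4 (2015, others 6101 to 6220.4). Control replicate 3 was high for Sema4f (2309, others 1527 to 1549), Epha2 (616, others 346 to 361) and Epha6 (451, others 322 to 344). Among mutants, replicate 2 was low for Ephb3 (2129.8 normalized counts, others 2979 to 3095) and replicate 4 for Ephb6 (21922, others 22937 to 23025).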

How the results depend on the processing

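Of the results for single named genes, 383 kept their direction and side of the threshold, 35 lost a call, 22 gained one and 18 changed sign. Most named genes were not called, and only the 5 called ones could lose a call. Of 17 alternative fits, Sema3c was called in 17, Ephb4 in 14, Ntn1 in 8, Efna3 in 6 and Sema6d in 5. Against 1 member called lower, pseudocount 0.1, no filter, edgeR and the replicate block each gave 2, DESeq2 gave 3, and pseudocount 10, a mean of at least 100, quantile normalization and an adjusted p under 0.05 gave 0. Against 4 members called higher, quantile normalization gave 7 and the adjusted p 0. Over all genes, library weights gave 1633 lower and 1997 higher, DESeq2 1573 lower, the replicate block 1719 lower, and the adjusted p 14 lower and 0 higher. In the pathway list, quantile normalization, library weights and the replicate block each gave 2 lower, and the adjusted p gave 0 lower and 0 higher. Leaving out 1 library gave 0 to 4 members lower and 1 to 7 higher, and 515 to 1977 genes lower and 619 to 1792 higher. It gave 1 to 7 pathway genes lower and 1 to 11 higher. The median log2 fold change ran from -0.18 to 0.13 for ligands and from -0.14 to 0.14 for receptors. The fewest member calls came without control replicate 1 or mutant replicate 4 (1 higher, 0 lower each), and mutant replicate 5 left 1 higher and 1 lower. The most came without control replicate 4 or 5 (7 higher, 4 lower each). The cause was not tested.

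Sema6b changed sign with library weights (-0.19), edgeR (-0.029), DESeq2 (-0.031) and the replicate block (-0.31), and ran from -0.29 to 0.19 without 1 library. Plxna4 did with library weights (-0.42), edgeR (-0.046), DESeq2 (-0.046) and the replicate block (-0.41), and ran from -0.37 to 0.17 without 1 library. Epha4 did with library weights (-0.093) and the replicate block (-0.091), and ran from -0.11 to 0.15 without 1 library. Slit3 did with library weights (-0.0066) and Ephb6 with quantile normalization (0.000135). Same-numbered libraries correlated at 0.10, 0.098 and 0.082 in their deviations from group means (mean 0.094, other pairs -0.021). Not every pair passed 0.1, and control replicate 5 correlated better with mutant replicate 4 (0.085), so whether numbers mark pairs is not settled. Control replicates 1 and 3 correlated positively with mutant replicates 2 and 3 (0.023 to 0.10). Replicates 4 and 5 did so between genotypes too (0.082 to 0.098). Every correlation between these sets was negative (-0.12 to -0.029). The source of this split was not tested. With the replicate block, which rests on replicates 3, 4 and 5 of each genotype, Plxnd1 was called (0.62). Ntn1 (0.37), Sema6d (0.46) and Efna3 (-0.25) were not. Neither control replicate 1 nor mutant replicate 2 carried weight in that fit. Effects of blocking and of leaving both out thus cannot be told apart.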

Other observations

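Robo3, a Robo that counters Slit repulsion before midline crossing, varied between libraries of both genotypes and was chosen after its values were seen. It had 652, 225, 1239 and 1326 normalized counts in control replicates 1, 3, 4 and 5 and 209, 335, 1494 and 1703 in mutant replicates 2, 3, 4 and 5. Its neighbour Robo4 lies 554 bp away on chromosome 9.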
